A study of Mus musculus with 10 samples.

Results

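Small leucine-rich proteoglycans are secreted matrix proteins, and 8 of their genes are described here in mouse preadipocytes that received an siRNA against the histone demethylase LSD1. The 8 genes are Lum (lumican), Dcn (decorin), Bgn (biglycan), Fmod (fibromodulin), Ogn (osteoglycin), Prelp, Aspn (asporin) and Podn (podocan). They were taken as every probe set, a group of short probes read as one value, whose gene symbol in the platform annotation was one of these 8 names. This gave 19 of 45037 probe sets, and 8 of 18193 genes with a probe set of their own. The cells were 3T3-L1, an established line of mouse embryo fibroblasts used as preadipocytes, since hormones turn them into fat cells. One pair of groups was of passage 19 and was collected 24 h after transfection, with 2 arrays for a scrambled control siRNA (siC) and 2 for the siRNA against LSD1 (siLsd1). The other pair was of passage 21 and was collected at 48 h, with 3 arrays for siC and 3 for siLsd1. All 4 groups received 60 nM of siRNA and no change of medium. The labels call the samples of a group biological replicates, so the p-values rest on the spread among these 10 samples. Each array reads a whole dish of one cell line, and an siRNA lowers its target without removing it.

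The members share a core of leucine-rich repeats that binds collagen fibrils, and most carry chains of chondroitin, dermatan or keratan sulfate. They set the spacing and width of collagen fibrils, and several also bind growth factors of the TGF-beta family or cell surface receptors. They are products of fibroblasts and other connective tissue cells, and the fibroblast-like precursors in fat tissue secrete them as part of the matrix that is remodelled when fat cells form.

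Intensities are linear values as deposited, and the median over each array lay between 35.6 and 40.6. Kdm1a, which encodes LSD1, had no siLsd1 value that reached the siC range at either time, with log2 changes of -0.69 at 24 h (adjusted p = 0.0473) and -0.55 at 48 h (adjusted p = 0.0338; -0.35 without the array described next, adjusted p = 0.00277). One array stood apart. Over 6943 bright genes, the third siLsd1 array at 48 h (replicate 3) differed from the other arrays of its group with an SD of 0.441 and 0.439 on the log2 scale, against 0.0892 to 0.205 for the other pairs within groups. It was closer to the siLsd1 arrays at 24 h, with SDs of 0.361 and 0.353. Kdm1a was 0.94 below the siC mean on the log2 scale on this array, and 0.35 and 0.36 below it on the other 48 h arrays with siLsd1. Results are therefore given with and without this array. Of 9 fibroblast and preadipocyte markers measured, 8 were above the dim level. Among them Pdgfra reached at least 1865 on every array and Vim at least 12713, while Cd34 stayed at 20.5 or less. The summed level of the 9 markers was 53004 to 54659 (siC) and 46852 to 47185 (siLsd1) at 24 h, and 56445 to 57699 (siC) and 38602 to 52126 (siLsd1) at 48 h. Thy1 was the 1 marker of this list called at each time, with log2 changes of -0.83 at both. Of 6 fat cell markers, Fabp4 and Adipoq were above the dim level and Lep, Cidec, Retn and Pck1 were not, and their sum was 3588 to 3669 (siC) and 1405 to 1705 (siLsd1) at 24 h and 4660.1 to 5416 (siC) and 1464 to 3091 (siLsd1) at 48 h. In that list Fabp4 fell at both times, with log2 changes of -1.28 and -1.16 (adjusted p = 0.0358 and 0.0183). Cartilage, bone and tendon cells also make these proteoglycans. Of 6 chondrocyte markers 5 were above the dim level, and Col9a1 fell at 24 h (-0.95, adjusted p = 0.0394) and Sox9 at 48 h (-0.35, adjusted p = 0.0332). Their sum was 1027.5 to 1076.8 (siC) and 1073.0 to 1073.9 (siLsd1) at 24 h, and 881 to 929 (siC) and 665 to 777 (siLsd1) at 48 h. Sox9 made up most of it, reading 537 to 969 over the arrays, and the other chondrocyte markers stayed at 52.6 or less. Of 4 osteoblast markers 3 were above the dim level, and Dmp1 fell at 48 h from a mean of 36.5 to 11.7, below that level (adjusted p = 0.0118). Their sum was 119 to 145 (siC) and 123 to 132 (siLsd1) at 24 h, and 117 to 144 (siC) and 80.4 to 133 (siLsd1) at 48 h. All 4 tenocyte markers were above the dim level by their mean. Their sum was 3818 to 3828 (siC) and 3088 to 3171 (siLsd1) at 24 h. At 48 h it was 5527 to 6104 (siC) and 1316 to 4654 (siLsd1). Egr1 made up most of it, reading 1104 to 5742 over the arrays. Mkx read 156 to 437, Scx 15.2 to 35.3 and Tnmd 12.5 to 38.4. Of 5 muscle markers 3 were above the dim level, and Des rose at 48 h (0.50, adjusted p = 0.0458). Their sum was 226 to 287 (siC) and 367 to 401 (siLsd1) at 24 h, and 202 to 254 (siC) and 247 to 313 (siLsd1) at 48 h. Of 7 macrophage and leukocyte markers 6 were above the dim level, and 0 were called at either time. Cd14 read 334 to 440, Adgre1 90 to 138 and Csf1r 82 to 122. Cd68, Tyrobp and Itgam stayed at 56.8 or less, and Ptprc, which marks leukocytes, at 17.0 or less. At 24 h the sum of the 7 was 623 to 644 (siC) and 684 to 779 (siLsd1). At 48 h it was 670 to 712 (siC) and 719 to 776 (siLsd1). The part of these markers in the changes of the members was not tested.

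With siLsd1, all 8 members had a log2 change below 0 at 24 h and at 48 h by their brightest probe sets. Without replicate 3 this held for 7 of 8 at 48 h, with Ogn at 0.0071. The median of all genes was also below 0 at both times, and the share of all genes below 0 was not counted. A gene is called here when its limma p-value, with Benjamini-Hochberg adjustment over 13644 genes, is under 0.05; the 25% of genes with the lowest mean, up to 18.4 intensity units, were left out as dim, and all 8 members were tested. In bulk RNA of this kind, fewer cells of a type and less RNA per cell cannot be told apart. At 24 h 1 member, Prelp, was called lower, where 2.79% of all genes tested were called lower and 5.39% in either direction. At 48 h 2 members, Lum and Bgn, were called lower, where 6.67% of all genes were called lower and 12.7% in either direction. The median log2 change of the 8 members was -0.68 at 24 h and -0.58 at 48 h, and that of all genes was -0.022 and -0.016. Without replicate 3 the members' median at 48 h was -0.15.

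The siLsd1 arrays lay below the siC arrays without overlap for 6 of 8 members at 24 h (Lum, Bgn, Fmod, Ogn, Prelp and Aspn), where 33.9% of all genes did so. At 48 h this held for 5 of 8 members (Lum, Bgn, Fmod, Prelp and Podn), against 20.9% of all genes. Without replicate 3 it held for the same 5 at 48 h, against 25.8%. Replicate 3 was the lowest of the 6 arrays at 48 h for 8 of 8 members and for 34.9% of all genes. It lay more than 1 log2 unit below the mean of the other siLsd1 arrays for 4 members (Aspn, Dcn, Fmod and Ogn), which held for 3.46% of all genes. Against the siC mean of the same time, the median of the 8 members was -0.61 and -0.70 on the siLsd1 arrays at 24 h, -0.14 and -0.14 on the first pair at 48 h, and -1.57 on replicate 3.

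**Figure D1:**
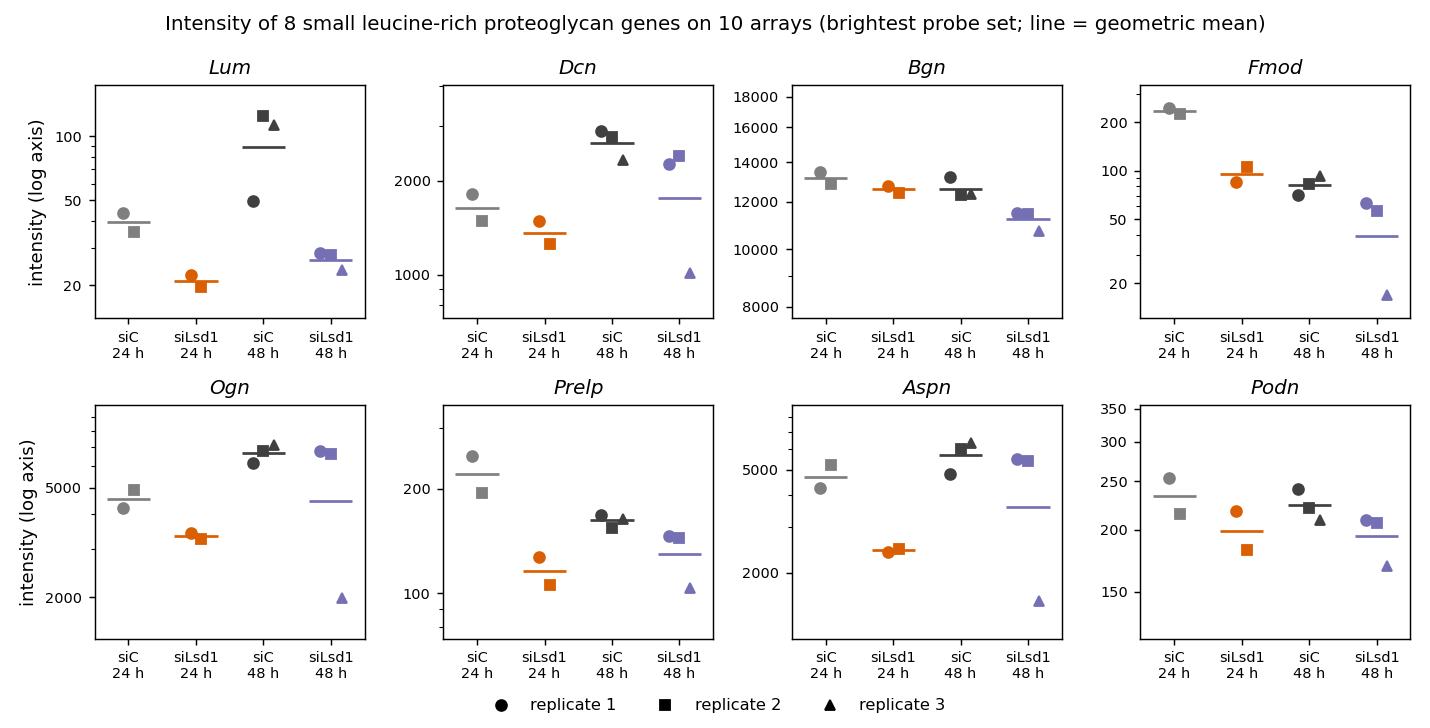
Intensity of the brightest probe set of each of the 8 genes (log axis) on the 10 arrays by group; symbols mark the replicate and lines the geometric mean of a group. Lum lay between 49.5 and 124 on the siC arrays at 48 h and between 23.6 and 28.2 on the siLsd1 arrays, while Ogn, Aspn and Dcn were low on 1 siLsd1 array at 48 h, replicate 3.

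Lum encodes a keratan sulfate proteoglycan of the class II group, known for ordering collagen fibrils in the cornea and skin. Its 1 probe set, 1423607_at, read 43.5 and 35.7 on the siC arrays at 24 h and 22.2 and 19.5 on the siLsd1 arrays. At 48 h it read 49.5, 124 and 113 with siC and 28.2, 27.6 and 23.6 with siLsd1. The groups did not overlap at either time, siC replicate 1 at 48 h was far below the other siC arrays, and the siLsd1 arrays at 24 h were just above the dim level of 18.4. At 48 h the log2 change was -1.75 (SE 0.31, 95% interval -2.45 to -1.05, 3.36-fold lower, adjusted p = 0.0102). Without replicate 3 it was -1.67 (adjusted p = 0.00677). It was called in 21 of 22 alternatives, with adjusted p between 1.03e-05 and 0.0524. At 24 h the log2 change was -0.92 (SE 0.38, 95% interval -1.77 to -0.067, adjusted p = 0.190), and it was called in 3 alternatives, among them without siC 48 h replicate 1 (adjusted p = 0.0436). In decreasing order of its group means Lum ran from siC at 48 h to siC at 24 h, siLsd1 at 48 h and siLsd1 at 24 h, and no neighbours in that order overlapped.

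Fmod encodes a class II keratan sulfate proteoglycan that binds collagen near the sites of its cross-links. By its brightest probe set, 1456084_x_at, the siC arrays at 24 h gave 244 and 226 and the siLsd1 arrays 85.4 and 106. The values at 48 h were 70.2, 82.1 and 92.3 with siC and 63.0, 56.2 and 16.9 with siLsd1. The groups did not overlap at either time, and replicate 3 was below the dim level. The log2 change was -1.31 at 24 h (SE 0.50, adjusted p = 0.157) and -1.05 at 48 h (SE 0.41, adjusted p = 0.110), so neither was called over all 10 arrays. Without replicate 3 the change at 24 h was called with the same size (SE 0.16, adjusted p = 0.000201), because the 4 groups share 1 estimate of the spread, and that at 48 h was -0.45 (adjusted p = 0.0601). The change at 48 h was called without siLsd1 48 h replicate 1, at -1.40 (adjusted p = 0.0492).

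The 6 probe sets of Fmod did not behave alike. The 5 whose names end in _x_at, a suffix Affymetrix gave to sets with probes that can also match other transcripts, had log2 changes between -1.45 and -1.29 at 24 h and between -1.05 and -0.77 at 48 h. The set without that suffix, 1415939_at, gave 95.2 and 104 for siC at 24 h, next to 85.1 and 94.9 for siLsd1. Its values at 48 h were 79.6, 61.4 and 65.1 with siC and 63.1, 89.1 and 87.4 with siLsd1. Its log2 changes were -0.15 and 0.21, and its groups overlapped at 48 h. The dimmest set, 1437685_x_at, was at or below the dim level on 8 of 10 arrays.

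Prelp encodes a class II protein whose basic end binds heparan sulfate and the basement membrane proteoglycan perlecan. By its brighter probe set, 1416321_s_at, it read 249 and 195 (siC) and 127 and 106 (siLsd1) at 24 h. The later values were 169, 155 and 164 with siC and 147, 145 and 104 with siLsd1. All siLsd1 values lay below the siC values of their time. Prelp fell at 24 h with a log2 change of -0.93 (SE 0.19, 95% interval -1.36 to -0.50, 1.90-fold lower, adjusted p = 0.0259). At 48 h the log2 change was -0.32 (adjusted p = 0.193), and -0.16 without replicate 3 (adjusted p = 0.435). The call at 24 h was lost without siC 24 h replicate 1 (adjusted p = 0.186) or replicate 2 (0.0806), without siLsd1 24 h replicate 1 (0.124) or replicate 2 (0.167), and without siC 48 h replicate 2 (0.0524). Without replicate 3 the call was kept (adjusted p = 0.000615). The dimmer probe set, 1416322_at, read 107 and 75.6 (siC) and 93.3 and 109.7 (siLsd1) at 24 h, and overlapped at both times. Its log2 changes of 0.17 and 0.20 had the opposite sign and were not called, and the mean of both sets was not called at 24 h (adjusted p = 0.255).

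Prelp and Fmod lie next to each other in the RefSeq gene order of assembly GRCm38.p6, with Optc on the other side of Prelp. The 250 bases before their annotated starts are shown because both genes had lower siLsd1 values at 24 h, and capitals mark a match to CCAAT. The windows are chr1:133921402-133921651 on the minus strand for Prelp and chr1:134037004-134037253 on the plus strand for Fmod, from RefSeq, each written 5′ to 3′ on the strand of its gene.
Prelp: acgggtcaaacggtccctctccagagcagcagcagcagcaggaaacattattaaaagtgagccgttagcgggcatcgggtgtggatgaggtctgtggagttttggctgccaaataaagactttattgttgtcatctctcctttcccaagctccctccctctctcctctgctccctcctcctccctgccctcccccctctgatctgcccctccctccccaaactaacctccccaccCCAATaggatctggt
Fmod: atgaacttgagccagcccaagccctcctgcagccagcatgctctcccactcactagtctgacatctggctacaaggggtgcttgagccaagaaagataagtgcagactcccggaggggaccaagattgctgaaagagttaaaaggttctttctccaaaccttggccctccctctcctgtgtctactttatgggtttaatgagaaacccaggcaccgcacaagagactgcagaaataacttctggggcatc
Windows of 6 members were in the table used. Each was searched on both strands for 4 patterns. Of all 32851 windows, 12.4% hold the TATA box pattern TATAAA, 33.8% hold the pattern CCAAT, 32.7% hold the GC box pattern GGGCGG and 6.75% hold the AP-1 pattern TGANTCA. The Prelp window held 1 CCAAT, 11 to 15 bases before the start, and the Fmod window matched none of the 4 patterns. A match describes these letters only.

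Dcn and Bgn are the best known class I members, which carry dermatan or chondroitin sulfate. Decorin binds collagen fibrils and TGF-beta, and biglycan also binds the innate receptors TLR2 and TLR4. By its bright probe set, 1449368_at, Dcn read 1810.4 and 1486 (siC) and 1490.15 and 1249.9 (siLsd1) at 24 h. At the later time the values were 2889, 2758 and 2321 with siC and 2264, 2397 and 1015 with siLsd1. The groups overlapped at both times. The log2 change was -0.27 at 24 h (adjusted p = 0.694) and -0.58 at 48 h (95% interval -1.19 to 0.029, adjusted p = 0.176). Without replicate 3 the change at 48 h was -0.18 (95% interval -0.43 to 0.059, adjusted p = 0.296). A dimmer set, 1441506_at, had siLsd1 above siC without overlap at both times, with 80.5 and 89.9 against 101 and 98.8 at 24 h. Its log2 changes of 0.23 and 0.39 were not called.

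Bgn was among the brightest genes of the arrays. By 1437889_x_at the values at 24 h were 13469 and 12869 (siC) and 12774 and 12436 (siLsd1). Those at 48 h were 13217, 12313 and 12391 with siC and 11512, 11452 and 10714 with siLsd1. The siLsd1 values were lower without overlap at both times. These values lie close to the highest value of each array, 14863 to 15820, and whether folds are compressed there was not tested. Bgn fell at 48 h, with a log2 change of -0.17 (SE 0.046, 1.13-fold lower, adjusted p = 0.0397), and the change at 24 h was -0.063 (adjusted p = 0.557). Without replicate 3 the 48 h change was -0.14 (adjusted p = 0.0376). The call at 48 h was made in 6 of 23 alternatives. It was lost without either siC array at 24 h, either siLsd1 array at 24 h, any siC array at 48 h or siLsd1 48 h replicate 2, with adjusted p between 0.0510 and 0.105. It was lost too with arrays centred on the median (adjusted p = 0.197). Of its other probe sets, 1448323_a_at had a change of -0.18 at 48 h and 1416405_at one of -0.068, with overlapping groups.

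Aspn encodes the class I member that lacks a sugar chain and binds TGF-beta, and Ogn encodes a class III member found in bone and in many connective tissues. By 1448421_s_at, Aspn read 4227 and 5219 (siC) and 2414 and 2475 (siLsd1) at 24 h. On the 48 h arrays it gave 4814, 5983 and 6329 with siC and 5509, 5400.25 and 1559 with siLsd1. The groups did not overlap at 24 h, and at 48 h replicates 1 and 2 lay within the siC range while replicate 3 was far below it. The log2 change at 24 h was -0.94 (SE 0.48, 1.92-fold, adjusted p = 0.286) over all arrays, and it was called without replicate 3 (SE 0.12, adjusted p = 0.000230). The log2 change at 48 h was -0.66 (adjusted p = 0.282), and without replicate 3 it was -0.056 (95% interval -0.29 to 0.18, adjusted p = 0.780). The other set, 1416652_at, had a log2 change of -1.15 at 24 h and -0.99 at 48 h, neither called.

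Ogn, by 1419663_at, read 4224 and 4923 (siC) and 3416 and 3268 (siLsd1) at 24 h. The 48 h arrays gave 6164, 6776 and 7122 with siC and 6799, 6619 and 1982 with siLsd1. The groups were apart at 24 h and overlapped at 48 h, where replicate 3 was the low array. The log2 change at 24 h was -0.45 (adjusted p = 0.615), called without replicate 3 (SE 0.078, adjusted p = 0.00178). At 48 h it was -0.58 (adjusted p = 0.322), and 0.0071 without replicate 3 (95% interval -0.15 to 0.16, adjusted p = 0.962). The dimmer set, 1419662_at, read 726 on replicate 3 and 3559 and 3654 on the other siLsd1 arrays at 48 h, and its log2 changes were -0.45 and -0.88, neither called.

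Aspn and Ogn lie in one row of family genes on chromosome 13 in the RefSeq order of GRCm38.p6, which runs Ecm2, Aspn, Omd, Ogn. Their windows of 250 bases before the start, chr13:49544193-49544442 and chr13:49607765-49608014 on the plus strand, are shown because both genes had groups apart at 24 h and replicate 3 far below the other arrays at 48 h. Capitals mark matches to TATAAA and CCAAT on either strand.
Aspn: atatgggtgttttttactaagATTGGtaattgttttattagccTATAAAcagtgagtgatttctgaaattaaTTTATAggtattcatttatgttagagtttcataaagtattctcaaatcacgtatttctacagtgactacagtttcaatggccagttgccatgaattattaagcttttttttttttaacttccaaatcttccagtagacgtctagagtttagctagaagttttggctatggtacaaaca
Ogn: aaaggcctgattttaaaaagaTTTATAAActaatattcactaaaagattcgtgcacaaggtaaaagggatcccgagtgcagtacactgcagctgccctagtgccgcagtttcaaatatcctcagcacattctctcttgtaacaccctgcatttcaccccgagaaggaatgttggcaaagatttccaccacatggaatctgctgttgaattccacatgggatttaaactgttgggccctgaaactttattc
The Aspn window held 2 matches to TATAAA and 1 to CCAAT, and 30.0% of its bases were G or C, against a median of 52.4% over all windows. The Ogn window held 2 matches to TATAAA that overlap each other on opposite strands, and 42.0% of its bases were G or C. These matches lay between 173 and 229 bases before the start.

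Omd (osteomodulin), between Aspn and Ogn and not among the 8, read 41.9 and 32.9 (siC) and 16.9 and 20.1 (siLsd1) at 24 h. Its 48 h values were 177, 145 and 155 with siC and 152, 142 and 17.9 with siLsd1. Replicate 3 was thus at the dim level while the other siLsd1 arrays were near the siC arrays. Its log2 change was -1.01 at 24 h (adjusted p = 0.504, and 0.00176 without replicate 3) and -1.12 at 48 h (adjusted p = 0.272, and -0.11 without replicate 3). Ecm2 stayed at 18.9 or less.

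Podn, a class V member first described in kidney podocytes, read 254 and 215 (siC) and 218 and 182 (siLsd1) at 24 h by its 1 probe set, 1435180_at. The 48 h values were 242, 221 and 209 with siC and 209, 206 and 169 with siLsd1. The groups overlapped at 24 h and were barely apart at 48 h, where the lowest siC value was 209.40 and the highest siLsd1 value 208.84. The log2 changes were -0.23 (95% interval -0.57 to 0.11, adjusted p = 0.416) and -0.21 (95% interval -0.49 to 0.073, adjusted p = 0.288). The change at 48 h was -0.11 without replicate 3 (adjusted p = 0.566).

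**Figure D2:**
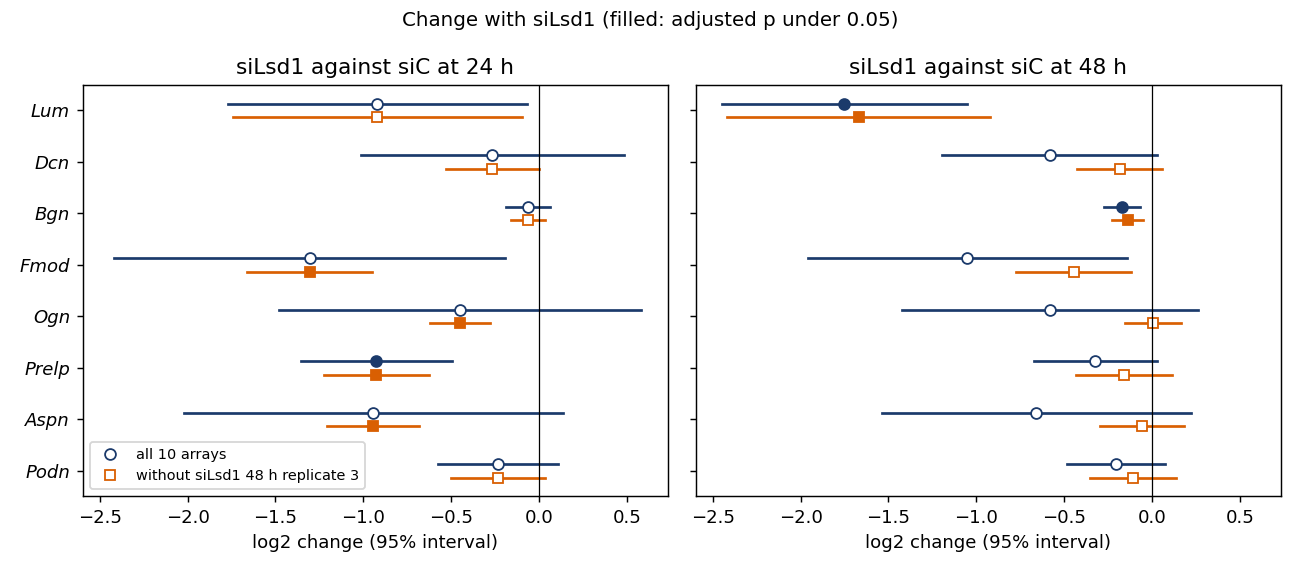
Log2 change of siLsd1 against siC with its 95% interval for the 8 genes, at 24 h on the left and 48 h on the right, over all 10 arrays (circles) and without siLsd1 48 h replicate 3 (squares); filled symbols have an adjusted p under 0.05. Without that array the intervals of Aspn, Ogn and Fmod narrow at 24 h and the changes of Aspn and Ogn at 48 h move to -0.056 and 0.0071, while Lum stays at -1.67.

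For the mean of both times, which uses the same arrays as the separate comparisons, 4 of 8 members were called lower, and 13.7% of all genes were. Lum fell by 1.34 (adjusted p = 0.00537), Fmod by 1.18 (adjusted p = 0.0264), Prelp by 0.62 (adjusted p = 0.00754) and Bgn by 0.12 (adjusted p = 0.0428), all on the log2 scale. Without replicate 3, 6 members were called lower for the mean, with Ogn and Aspn added to these 4, against 19.3% of all genes. The count without replicate 3 was 4 at 24 h (Fmod, Ogn, Prelp and Aspn), against 15.3% of all genes called lower. At 48 h it was 2 (Lum and Bgn), against 9.96%.

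All 34945 probe sets were also fitted separately without a filter. There limma called 0 of 19 member sets lower at 24 h, where 0.735% of all sets were. By gene, at an unadjusted limma p under 0.05, 3 of 8 members passed at 24 h and 3 at 48 h, all of them lower. Of all 13644 genes, 3069 passed at 24 h and 4327 at 48 h, in either direction. At 48 h 1 set was called lower, that of Lum, against 2.13% of all sets. For the mean of both times 5 sets were called lower, against 6.15%: those of Lum and Prelp (the brighter) and 3 of Fmod. The names of these 3 Fmod sets all end in _x_at. Among them 1437685_x_at was at or below the dim level on 8 of 10 arrays. The Fmod set without that suffix, 1415939_at, had a log2 change of 0.031 for the mean (limma adjusted p = 0.927). The log2 change was below 0 for 17 of 19 sets at 24 h and for 16 at 48 h. The median change over all sets was -0.005 at 24 h and -0.0228 at 48 h.

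**Figure D3:**
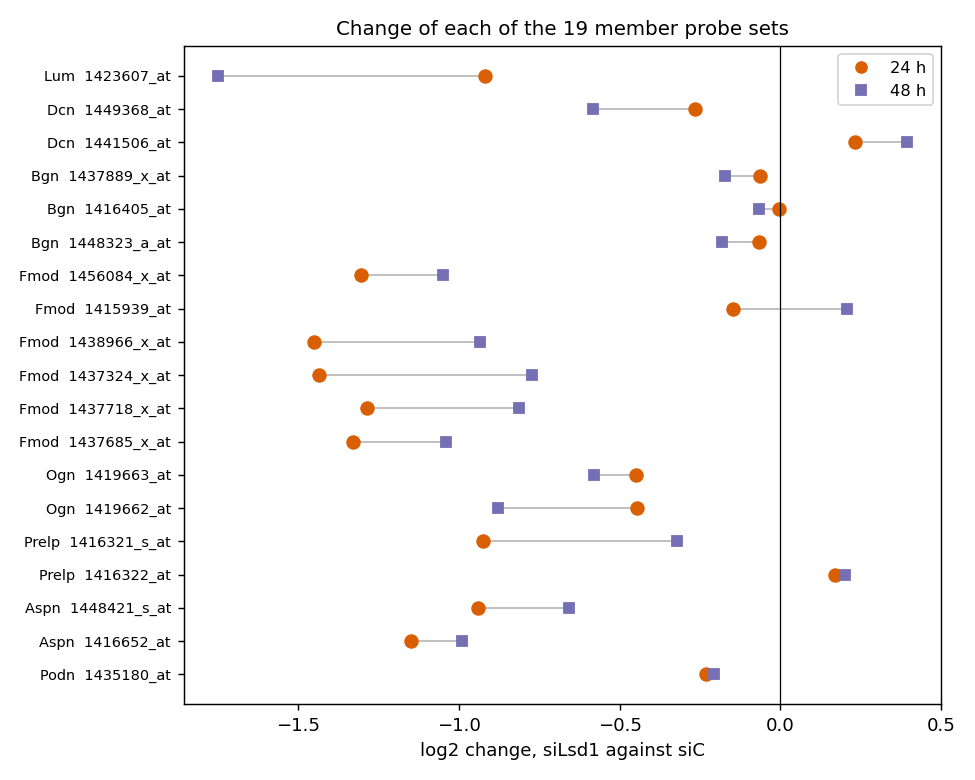
Log2 change of siLsd1 against siC for each of the 19 probe sets of the 8 genes at 24 h (circles) and 48 h (squares), over all 10 arrays. The dimmer sets of Dcn and Prelp lie above 0 at both times and 1415939_at of Fmod lies at -0.15 and 0.21, apart from the other 5 Fmod sets.

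The change with siLsd1 was compared between the times by the difference of the 48 h and the 24 h change. Over all arrays limma called 0 of 8 members and 0.0% of all genes (0 of 13644, with 896 at an unadjusted p under 0.05). The difference was -0.83 for Lum (95% interval -1.93 to 0.27, adjusted p = 0.876) and 0.61 for Prelp (95% interval 0.050 to 1.16, adjusted p = 0.708). For Prelp the unadjusted p was 0.0354, the 1 member under 0.05. Without replicate 3 Aspn was called, with a difference of 0.89 (95% interval 0.53 to 1.24, adjusted p = 0.0259), where 1.47% of all genes were called. In that fit the difference was 0.86 for Fmod (adjusted p = 0.0835), 0.77 for Prelp (adjusted p = 0.0692) and 0.46 for Ogn (adjusted p = 0.0627). With array weights 434 genes were called, Prelp among them, and with no intensity trend 1 gene was called.

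**Figure D4:**
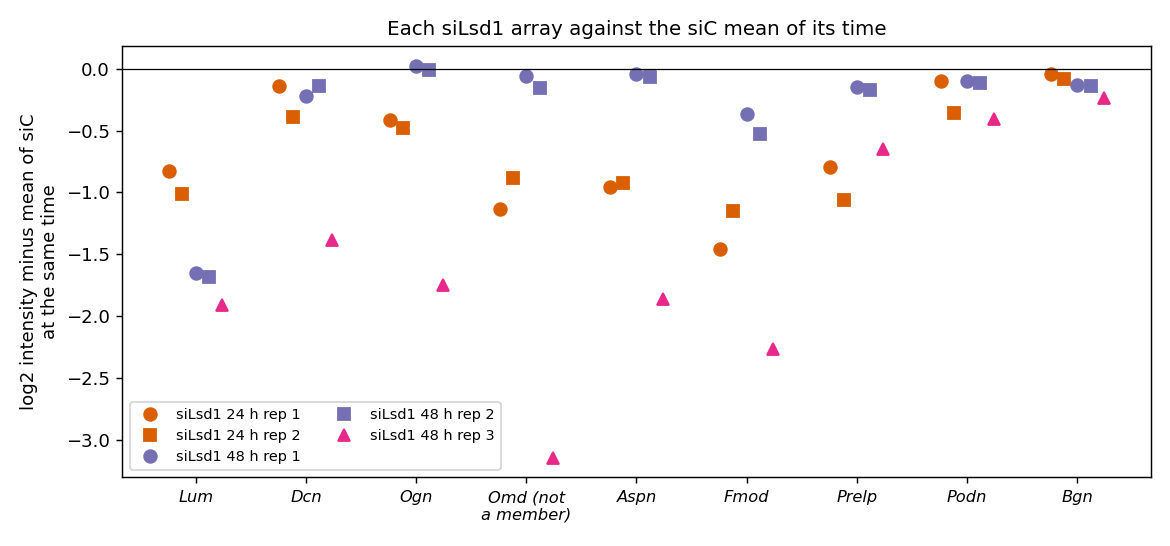
Log2 intensity of each siLsd1 array minus the mean of the siC arrays of its time, for the 8 genes and for Omd, their neighbour that is no member. Replicates 1 and 2 at 48 h lie near 0 for Ogn, Omd and Aspn and at -1.66 and -1.68 for Lum, while replicate 3 lies at -1.75 for Ogn, -1.86 for Aspn and -3.15 for Omd.

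In the control cells alone, siC at 48 h against siC at 24 h, Lum rose and Fmod fell. Time and passage differ together here and cannot be told apart, and these siC arrays are those of the siLsd1 comparisons. Lum rose by 1.17 on the log2 scale (SE 0.35, 2.25-fold, adjusted p = 0.0348), the 1 member among 8 called higher, where 12% of all genes were called higher. Fmod fell by 1.54 (SE 0.46, 2.90-fold, adjusted p = 0.0342), the 1 member called lower, where 12.2% of all genes were. Both calls were lost without either siC array at 24 h, either siLsd1 array at 24 h, siC 48 h replicate 2 or siC 48 h replicate 3, with adjusted p between 0.0533 and 0.186, and that of Fmod also without siC 48 h replicate 1 (adjusted p = 0.0921). Dcn had a log2 change of 0.69 (adjusted p = 0.134), Ogn of 0.55 (adjusted p = 0.389) and Prelp of -0.44 (adjusted p = 0.0970), and these 3 were called without replicate 3. Aspn (0.27), Bgn (-0.059) and Podn (-0.062) were not called with or without it. By probe set 2 of 19 were called lower, against 7.21% of all sets. These were 1 set of Fmod, 1438966_x_at, and the dimmer set of Dcn, 1441506_at. That Dcn set was above the dim level on every array, and its log2 change had the opposite sign to that of the bright set.

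The order of the group means differed between members. Fmod ran from siC at 24 h to siLsd1 at 24 h, siC at 48 h and siLsd1 at 48 h, with overlap between the 2 middle groups. Prelp ran from siC at 24 h to siC at 48 h, siLsd1 at 48 h and siLsd1 at 24 h, with overlap between the siLsd1 groups. Ogn and Dcn ran from siC at 48 h to siLsd1 at 48 h, siC at 24 h and siLsd1 at 24 h; the last step of Ogn was free of overlap, and every step of Dcn overlapped. For Aspn and Podn too every neighbouring pair overlapped, and for Bgn the lowest group, siLsd1 at 48 h, was apart.

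Over the 10 arrays, which share their groups and replicate 3, the log2 intensities of Ogn and Aspn had a Pearson correlation of 0.97 (0.94 over 9 arrays without replicate 3). Dcn and Ogn had 0.92 (0.88 without it), and Prelp and Podn 0.86 (0.81). The adjacent genes Lum and Dcn had 0.66 (0.64), and Prelp and Fmod 0.74 (0.64). Dcn and Fmod had 0.17, and -0.54 without replicate 3. These values describe the arrays and carry no test.

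The genes most like Lum over the 10 arrays, by Pearson correlation among 13644 genes, were Synj1 (0.955), Zfp637 (0.95), Pdcd1lg2 (0.95), Ccdc66 (0.95) and Exoc7 (0.94). Without replicate 3 they were Btd (0.96), Zfp637 (0.96), Mfn1 (0.96), Pdcd1lg2 (0.95) and Sh3bp5 (0.95). The member most like Lum was Aspn, at rank 2513 with 0.67. Synj1 spanned a smaller range than Lum: its lowest value was 596 with siLsd1 at 24 h and its highest 918 with siC at 48 h. Its log2 change at 48 h was -0.43. These genes were picked because they follow Lum on the same arrays. A lower level with siLsd1 at 48 h is therefore built into the choice and is no separate result.

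The list counts that follow stand beside these shares of all genes over all 10 arrays. At 24 h 2.79% were called lower and 2.6% higher, and at 48 h 6.67% lower and 6.0% higher. Of the 10 other family genes listed, 8 were on the arrays and 4 were above the dim level: Omd, Optc, Nyx and Epyc. At 24 h and 48 h limma called 0 of these 4, with 0 and 1 at an unadjusted p under 0.05, and Omd was called lower at 24 h without replicate 3. Kera, which follows Lum in the gene order, read 32.5 on 1 array and 18.0 or less on the others, and Chad reached at most 6.44. Optc, the neighbour of Prelp, had a log2 change of -0.74 at 48 h (adjusted p = 0.0649), with 42.4, 29.1 and 33.8 (siC) against 20.5, 17.5 and 24.7 (siLsd1).

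Of 18 tested enzymes that build the linker, chondroitin and dermatan sulfate chains of these proteins, limma called 0 at either time, with median log2 changes of -0.11 and -0.26, the latter -0.13 without replicate 3. At an unadjusted p under 0.05, 1 was higher at 24 h, and 6 were lower and 1 higher at 48 h; without replicate 3, 5 were called at 24 h and 2 at 48 h, where 25.5% and 18.1% of all genes were called. Ust, a sulfotransferase, had the lowest p at 48 h, with a change of -0.68 (adjusted p = 0.0501). Of 7 tested keratan sulfate enzymes, 1 was called higher and 1 lower at 24 h, and 1 lower at 48 h. Chst1, which sulfates the galactose of keratan sulfate, fell from 189.98 ± 15.6 (SD, n = 2) to 96.1 ± 0.891 at 24 h (1.97-fold, adjusted p = 0.0455). At 48 h it fell from 335 ± 24.2 (SD, n = 3) to 172 ± 54.4 (2.01-fold, adjusted p = 0.0147). B4galt1, a galactosyltransferase, rose 1.37-fold at 24 h (adjusted p = 0.0239). The median log2 change of these 7 was -0.15 at 24 h and -0.020 at 48 h (-0.012 without replicate 3).

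Of 11 tested collagen chains of the fibrils these proteins bind, 1 was called lower at 24 h and 3 at 48 h. These were chains of collagen VI, which biglycan and decorin bind. Col6a2 fell 1.54-fold at 24 h (adjusted p = 0.00986) and 1.36-fold at 48 h (adjusted p = 0.0120). Col6a3 fell 1.70-fold (adjusted p = 0.0481) and Col6a1 1.42-fold (adjusted p = 0.0470) at 48 h. When replicate 3 was left out, the log2 change of Col6a3 went from -0.76 to -0.43 (adjusted p = 0.000552) and that of Col6a1 from -0.50 to -0.29 (adjusted p = 0.00253). The list's median log2 change was -0.36 at 24 h and -0.45 at 48 h, and -0.13 at 48 h without replicate 3. In the fit without that array 7 chains were called lower at 24 h and 4 at 48 h. Of all genes 15.3% and 9.96% were called lower there. Of 16 tested genes of fibril assembly, Fn1 (fibronectin) fell 1.37-fold at 24 h (adjusted p = 0.0249), and Plod3, a lysyl hydroxylase, rose 1.27-fold at 48 h (adjusted p = 0.0245). These were the calls in that list at 24 h and 48 h, and its median log2 changes were -0.071 and -0.082. Without replicate 3, 3 of its genes were called higher and 3 lower at 24 h, and 2 higher and 2 lower at 48 h. In that fit 25.5% and 18.1% of all genes were called in either direction.

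Of 14 tested proteases that cut or process these proteins, 1 was called lower at 24 h, and 2 were called higher and 5 lower at 48 h. Of all genes 2.79% were called lower at 24 h, and 6.0% higher and 6.67% lower at 48 h. The list's median log2 change was -0.24 at both times. Mmp9, a gelatinase, fell 2.11-fold at 24 h, from 208 ± 6.52 to 98.6 ± 1.75 (SD, n = 2; adjusted p = 0.00307). Bmp1, which cleaves the propeptide of biglycan, fell 1.80-fold at 48 h (adjusted p = 0.0267), and its relative Tll1 fell (adjusted p = 0.0499). The siLsd1 values of Tll1 were 31.5, 21.9 and 8.91, the last of them, replicate 3, below the dim level. Its log2 change was -1.34, and -0.82 without replicate 3 (adjusted p = 0.0374). Mmp13, a collagenase, rose 3.84-fold at 48 h (adjusted p = 0.00456), with 81.4, 128 and 122 (siC) against 329, 317 and 692 (siLsd1), and replicate 3 was its highest array. Adamts9 rose 1.52-fold at 48 h (adjusted p = 0.0431). Of 2 other probe sets each at 48 h, 1 of Bmp1 had the opposite sign. Those of Adamts9 had log2 changes of -0.00 and -0.52, so neither rose. Without replicate 3, 1 protease was called higher and 6 lower at 24 h, and the counts at 48 h were again 2 higher and 5 lower. In that fit 25.5% and 18.1% of all genes were called in either direction, and 15.3% and 9.96% lower.

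Of 20 tested receptors and growth factors that these proteins bind, 2 were called higher at 24 h and 2 at 48 h. Ccn4 rose 1.915-fold (adjusted p = 0.0303) and Fas 1.49-fold (adjusted p = 0.0210) at 24 h. Ccn2, a connective tissue growth factor that decorin binds, rose 2.14-fold (adjusted p = 0.0187) and Tlr2, a receptor of biglycan, 1.33-fold (adjusted p = 0.0180) at 48 h. The list's median log2 change was -0.12 at 24 h and -0.055 at 48 h, and 0.005 at 48 h without replicate 3. In that fit 5 were called higher and 6 lower at 24 h, and 3 higher and 1 lower at 48 h, where 10.1% and 8.16% of all genes were called higher. Of 19 tested other proteoglycans and their partners, 3 were called lower at 24 h and 2 at 48 h. Vcan (versican) fell 1.31-fold at 24 h (adjusted p = 0.0149) and 1.41-fold at 48 h (adjusted p = 0.00146), though 4 of its other 7 probe sets at 24 h and 2 at 48 h had the opposite sign. Cd44, a receptor of hyaluronan, fell 1.315-fold at 24 h (adjusted p = 0.0264) and 1.35-fold at 48 h (adjusted p = 0.00671), with the opposite sign in 1 of 3 other sets at each time. Hspg2, which encodes the perlecan that Prelp binds, fell 1.61-fold at 24 h (adjusted p = 0.0347). That is a log2 change of -0.68, while its other probe set had one of -0.11. The median log2 change of that list was -0.29 at 24 h and -0.22 at 48 h, and -0.065 at 48 h without replicate 3. Without replicate 3, 7 were called lower at 24 h, and 4 lower and 1 higher at 48 h, where 15.3% and 9.96% of all genes were called lower.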

How the data were processed

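Biotin-labelled cRNA from total RNA of 10 samples was hybridised to Affymetrix arrays, per the labels' protocols. The table deposited by the authors holds 1 linear intensity per probe set and array; the summarisation, normalization and genome build are not given in the sources used here. No value was zero or negative, so its log2 was used with no pseudocount. Of 45037 probe sets, 34945 carried 1 gene symbol in the platform annotation, 932 several and 9160 none; the last 2 kinds were left out. The probe set with the highest mean stood for a gene, and the lowest 25% of 18193 genes were left out, leaving 13644.

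The 4 group means were estimated with limma 3.58.1 in R 4.3.3 (lmFit, eBayes with an intensity trend, 6 residual degrees of freedom), and p-values were adjusted by Benjamini and Hochberg within each of 5 comparisons at 0.05. The fit was tested on simulated data. Precision is set by how many arrays each group has and by the spread that the 4 groups share.

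The members and gene lists were chosen with earlier results of these data known. Named genes are the 8 members, Kdm1a, up to 4 called genes of each list with the largest fold or the 2 with the smallest p, the 5 genes most like Lum, and family genes beside members. Thy1 and the markers with levels were named outside that rule. Alternatives were every probe set, the mean of probe sets, other filters (none, lowest 50%), quantile normalization, median centring, intensity plus 16, no trend, array weights, arrays compared alone, siLsd1 48 h replicates 1 and 2 averaged, replicate blocks and each array left out. Whether replicate numbers pair the samples is not stated, and the main fit used no replicate block. Deviations of same-numbered samples correlated at -0.074 in both pairs at 24 h, where 2 arrays a group make these 1 value. At 48 h they correlated at -0.19, 0.054 and -0.064. With 2 or 3 arrays a group these values cannot decide whether the samples were paired. Promoter windows and gene order come from RefSeq GRCm38.p6. Figures were drawn with matplotlib 3.10.9 in Python 3.11.15.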

Additional observations from a re-analysis of the deposited data

How the results depend on the processing

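Of 24 alternatives, 10 left out 1 array each; where an arm keeps 1 array, that array is assumed to vary like the other groups. The number of members called at 24 h was 1 and became 0 with every probe set, the mean of probe sets or a replicate block by number, and 5 with array weights, the arrays compared alone or a replicate block by sample code, where 26.2%, 23.3% and 10.8% of all genes were called; leaving out 1 array gave 0 to 4. At 48 h it was 2 and became 1 with every probe set, the mean of probe sets, no filter, the lowest 50% left out, quantile normalization, median centring, no trend or the replicate block by number, and 0 with the arrays compared alone; leaving out 1 array gave 1 to 3. For the mean of both times it was 4 and became 2 with the mean of probe sets or the lowest 50% left out and 7 with array weights (41.1% of all genes); leaving out 1 array gave 2 to 6. For the difference of the changes it was 0 and became 1 with array weights or the block by sample code; leaving out 1 array gave 0 to 1. For siC over time it was 2 and became 0 with every probe set or the lowest 50% left out, 1 with no trend and 5 with array weights or the arrays compared alone (45.4% and 34.6% of all genes); leaving out 1 array gave 0 to 5. At 24 h 5.39% of all genes were called. This was 3.13% with the mean of probe sets, 1.09% with the block by number and 25.5% without replicate 3. At 48 h it was 12.7%, and 6.95%, 4.87% and 18.1% in those settings. It was 1.83% with the arrays compared alone, 7.58% with no filter and 7.37% with no trend. It was 12.9% with median centring, 14.7% with quantile normalization and 21.3% with the lowest 50% left out. Leaving out the lowest 50% removes Lum and Fmod. A pooled spread that holds replicate 3 or not changes calls at 24 h, where the values are the same. Other causes were not tested. Signs turned at 48 h for Ogn (0.054 with the block by code, -0.88 to 0.0071 leaving out 1 array, the last without replicate 3) and Aspn (0.023 with the block by code). In the difference they turned for Dcn (0.024 with array weights, 0.26 with the block by code, -0.54 to 0.082 leaving out 1 array) and Ogn (0.39, 0.42, and -0.43 to 0.46 likewise), and with siLsd1 48 h replicates 1 and 2 averaged for Fmod (-0.049, and -0.089 to 0.86 leaving out 1 array), Aspn (-0.017, and -0.024 to 0.89) and Podn (-0.025, and -0.11 to 0.16). Over time the change of Podn was -0.18 to 0.060 leaving out 1 array and 0.011 with the replicate block across both times. All genes called numbered 736 at 24 h (30 to 3571 over the alternatives, 149 with the block by number and 3478 without replicate 3) and 1728 at 48 h (250 to 4922, 665 with the block by number and 2473 without replicate 3). For the mean of both times 3250 genes were called (1346 to 5602), and over time 3302 (1482 to 6192). Values of single members kept their direction and side of the threshold in 754 cases, passed the threshold anew in 43, no longer passed it in 66 and turned sign in 23. For the mean of both times 23.8% of all genes were called. This was 15.6% with the mean of probe sets, 35.1% with the lowest 50% left out and 33.8% without replicate 3. Over time 24.2% were called. This was 33.7% with the lowest 50% left out, 21.3% with no trend and 40.4% without replicate 3. For siC over time, blocks within a time are confounded with the arrays. A replicate block by number across both times, added after seeing the data, called 1 member, Dcn (0.94, adjusted p = 0.0110), and neither Lum (1.12, adjusted p = 0.0651) nor Fmod (-1.28, adjusted p = 0.0604).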
